A study of Mus musculus with 16 samples.

Results

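Chemokines and chemokine receptors were examined in RNA sequencing of mouse bone marrow-derived macrophages. Members were the protein-coding genes with a GENCODE M21 symbol of Ccl, Cxcl, Ccr, Cxcr or Ackr followed by a number, plus Cx3cr1, Cx3cl1, Xcr1, Xcl1, Ccrl2, Pf4 and Ppbp. They numbered 70 of the 54532 genes in the files, 46 ligands, 19 signalling receptors and 5 atypical receptors, and 7 of them lie on unplaced scaffolds. The 16 libraries fall into 5 groups. Macrophages of TRAP1 knockout mice were cultured in medium taken from YUMM1.7 cells, which are mouse melanoma cells (TRAP1 KO TCM, n = 4), beside TRAP1 wild-type cells with that medium (WT TCM, n = 3) and without it (WT naive, n = 3). A separate set held JMJD3 conditional knockout cells (JMJD3 cKO TCM, n = 3) and JMJD3 wild-type cells (JMJD3 WT TCM, n = 3), both with the medium. Marrow cells of all groups had been grown for 7 days in 20 ng/mL of M-CSF, the factor that drives macrophage differentiation, and the medium was given at 70% for 24 h. TRAP1 is a mitochondrial chaperone, and JMJD3, the product of Kdm6b, is a histone demethylase. The strain, age and sex of the mice, the exons that the conditional allele removes and the Cre driver are not named in the labels.

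Chemokines are small secreted proteins that attract leukocytes through receptors coupled to Gi proteins, and they are named CC, CXC, CX3C or XC after the spacing of their first cysteines. Ligands and receptors cross-react: CCR2 on monocytes binds CCL2, CCL7 and CCL12, CXCR2 on neutrophils binds CXCL1, CXCL2 and CXCL3, and CXCR3 on T cells binds CXCL9 and CXCL10. Atypical receptors bind chemokines or related attractants without signalling through G proteins. In tumors, macrophages are both a source of chemokines and recruited by them.

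Library totals ran from 15361604 to 22426820 counts. Trap1 averaged 0.0378 ± 0.0253 CPM (counts scaled to 1000000 per library, with TMM factors over all libraries) in TRAP1 KO TCM, 67.7 ± 5.36 in WT TCM and 68.0 ± 1.36 in WT naive (SD, n = 4, 3 and 3). Kdm6b averaged 25.5 ± 0.931 CPM in JMJD3 cKO TCM and 25.1 ± 1.70 in JMJD3 WT TCM (SD, n = 3 each), and the difference did not pass the test (edgeR, log2 fold change 0.04, SE 0.07, adjusted p = 0.75). Counts summed along Kdm6b cannot show the loss of a few exons, so the JMJD3 labels could not be checked. Ddx3y, on the Y chromosome, had 87.3 CPM in TRAP1 KO TCM, 86.5 in WT TCM and 85.2 in WT naive and 0 counts in both JMJD3 groups, so line and sex cannot be told apart. All 8 macrophage markers were detected in every group, with a summed level between 12868 and 26376 CPM per library. Markers of T cells, B cells, NK cells, mast cells, dendritic cells, megakaryocytes and melanoma cells each summed to at most 35.4 CPM in any library. The 12 markers of neutrophils and their precursors summed to 7.31 to 8.49 CPM per library in TRAP1 KO TCM, 8.70 to 11.6 in WT TCM, 61.0 to 64.0 in WT naive, 46.4 to 50.04 in JMJD3 cKO TCM and 32.4 to 35.6 in JMJD3 WT TCM. The 4 endothelial markers summed to 62.9 to 68.4 CPM in JMJD3 cKO TCM and 151 to 152 in JMJD3 WT TCM. They summed to 13.8 to 16.5 CPM in TRAP1 KO TCM, 16.1 to 19.5 in WT TCM and 29.6 to 30.6 in WT naive. Of the 3 endothelial markers tested, 3 fell in the JMJD3 knockout, 1 rose and 1 fell with the medium, and 1 fell without TRAP1. Whether these levels have a part in the results on chemokine genes was not tested. The labels do not tell whether replicates came from different mice or dishes, and the p-values then reflect library-to-library spread that could be technical. Because these are bulk samples, fewer cells of a type and less RNA per cell cannot be told apart in any value here.

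Few of the members made up most of the signal. In the group where each was highest, 13 members exceeded 100 CPM, among them the ligand genes Ccl2, Ccl5, Ccl6, Ccl7, Ccl8, Ccl9, Ccl12, Cxcl10, Cxcl16 and Pf4 and the receptor genes Ccr1 and Ccr2. Another 21 lay between 1 and 100 CPM. A further 23 stayed under 1 CPM in every group, with at most 24 counts in a library, namely Ccl1, Ccl11, Ccl17, Ccl22, Ccl24, Ccl28, Ccl27b, a scaffold copy of Ccl27, Cxcl5, Cxcl12, Cxcl13, Cxcl15, Cxcl17, Xcl1, Cxcr1, Cxcr2, Cxcr5, Cxcr6, Ccr4, Ccr6, Ackr2, Ackr3 and Ackr4. The remaining 13, which were Ccl20, Ccl26, Ccr8, Ackr1, another copy of Ccl27 and all copies of Ccl19, Ccl21a, Ccl21b and Ccl21c, had 0 counts in all 16 libraries. Copies of Ccl21 and Ccl27 are near-identical, and how the authors' counting shared reads between them is not known.

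Taken per kilobase of exon (RPKM, on the same scaled totals), the leading ligand differed by group. Pf4, platelet factor 4, led in TRAP1 KO TCM at 1422 ± 8.06 RPKM and in WT TCM at 805 ± 8.21. Ccl5, also called RANTES, led elsewhere, at 1006 ± 17.98 RPKM in WT naive, 1089 ± 21.7 in JMJD3 cKO TCM and 1543 ± 78.1 in JMJD3 WT TCM. The members together held 5866 ± 37.5 CPM in TRAP1 KO TCM, 5199 ± 35.0 in WT TCM, 3487 ± 35.9 in WT naive, 6484 ± 74.8 in JMJD3 cKO TCM and 7403 ± 186 in JMJD3 WT TCM (SD, n = 4 in TRAP1 KO TCM and 3 elsewhere). These sums are shares of a library and were not tested.

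The 3 contrasts of the design were tested with edgeR across all expressed genes, and a gene was called at a Benjamini-Hochberg adjusted p under 0.05. With melanoma medium in wild-type cells, 14 members rose and 11 fell among the 36 that passed the filter on low counts. Of all 14078 genes tested, 42.2% were called, 21.6% higher and 20.6% lower. Calls at least 2-fold in size took 9 members higher and 6 lower, beside 2.41% and 2.86% of all genes (5.27% in both directions). Without TRAP1, 16 members rose and 10 fell of the same 36, where the background was again 42.2% (21.2% higher and 21.0% lower). At least 2-fold, 10 rose and 4 fell, beside 2.85% and 2.73% of all genes (5.58% together). In the JMJD3 conditional knockout, 7 rose and 13 fell of 32 tested, against a background of 35.1% of 13476 genes (17.3% higher and 17.8% lower), and 0 rose and 4 fell at least 2-fold, beside 0.839% and 1.37% (2.21% together). The tested members had a median absolute log2 fold change of 0.64 with the medium, 0.82 without TRAP1 and 0.47 in the JMJD3 knockout, beside 0.18, 0.16 and 0.16 over all tested genes. A member that passed the filter only through the group where it is high had to differ, so these shares describe the tested members and not all 70. Scaling by library totals alone left the TRAP1 and medium contrasts near an even split, while in the JMJD3 contrast 71.5% of all calls were then higher, beside 49.2% with TMM, and 9 members rose and 13 fell. WT TCM is the treated group of the first contrast and the control of the next, so their results are not independent.

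**Figure D1:**
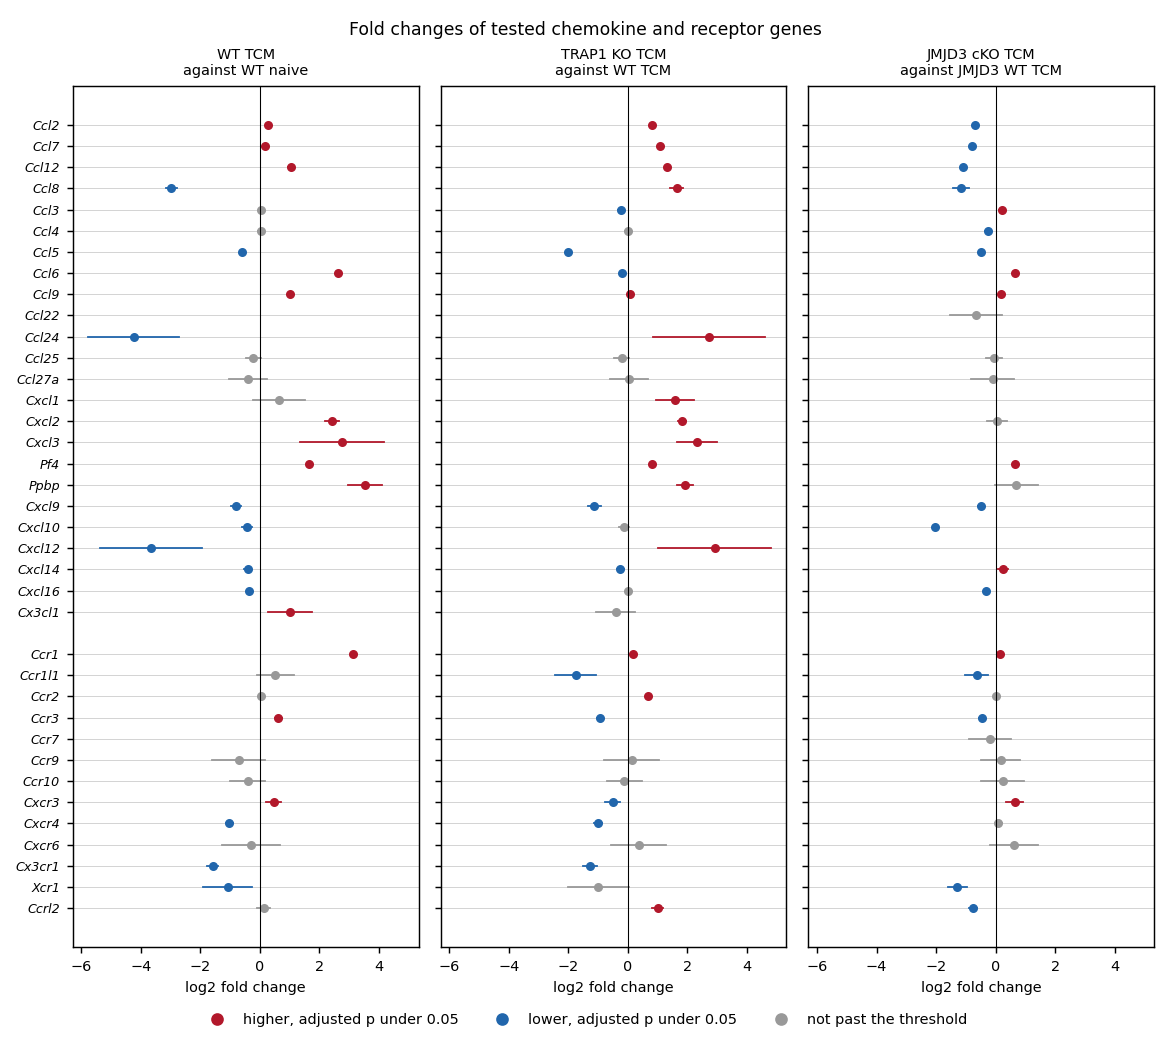
Log2 fold change (x axis) of tested ligand genes (upper block) and receptor genes (lower block) in the 3 contrasts, with the 95% interval as a line and red, blue or grey for higher, lower or not past the threshold. Ccl2, Ccl7, Ccl12 and Ccl8 lie right of 0 in the TRAP1 panel and left of 0 in the JMJD3 panel, and a missing point means that the gene did not pass the filter.

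Neighbouring CC chemokine genes on chromosome 11 moved in opposite directions in the knockouts. Ccl2 (ENSMUSG00000035385, chr11:82035571-82037453 in GRCm38), Ccl7 (chr11:82045712-82047525), Ccl12 (chr11:82101845-82103400) and Ccl8 (chr11:82115185-82116799) all rose without TRAP1 and all fell in the JMJD3 conditional knockout. With the medium alone Ccl2, Ccl7 and Ccl12 rose and Ccl8 fell. Ccl2, also called MCP-1 and the main ligand of CCR2, had 476, 477, 466 and 477 CPM in TRAP1 KO TCM, 280.4, 269 and 266 in WT TCM and 224, 226 and 221 in WT naive, and 414, 422 and 399.5 in JMJD3 cKO TCM against 642, 668 and 694 in JMJD3 WT TCM. No library of a group overlapped with one of the group it was compared with. The log2 fold change was 0.81, SE 0.02, adjusted p = 1.1e-54 without TRAP1, 0.28, SE 0.02, adjusted p = 2.9e-20 with the medium and -0.69, SE 0.03, adjusted p = 1.0e-23 in the JMJD3 knockout (edgeR).

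Ccl7, which acts on CCR1, CCR2 and CCR3, also rose without TRAP1 and with the medium and fell in the JMJD3 knockout. Its libraries held 458, 460.4, 473 and 498 CPM in TRAP1 KO TCM, 229.6, 226 and 224 in WT TCM and 195, 205 and 199 in WT naive. The JMJD3 set held 400.1, 410.3 and 399 CPM in JMJD3 cKO TCM and 688, 701 and 743 in JMJD3 WT TCM. All contrasted groups were apart, with log2 fold changes of 1.06, SE 0.02, adjusted p = 9.9e-50 without TRAP1, 0.18, SE 0.03, adjusted p = 3.5e-09 with the medium and -0.81, SE 0.03, adjusted p = 1.8e-26 in the JMJD3 knockout. Ccl12, a mouse CCR2 ligand also called MCP-5, had 145, 146, 143 and 147 CPM in TRAP1 KO TCM, 60.4, 59.6 and 55.8 in WT TCM and 27.4, 30.7 and 28.0 in WT naive, and 134, 138 and 133 in JMJD3 cKO TCM against 272, 296 and 309 in JMJD3 WT TCM. It changed at least 2-fold in all 3 contrasts, by 1.31, SE 0.03, adjusted p = 5.3e-53 without TRAP1, 1.03, SE 0.04, adjusted p = 1.1e-36 with the medium and -1.10, SE 0.04, adjusted p = 4.9e-26 in the JMJD3 knockout on the log2 scale.

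Ccl8, also called MCP-2, was the member of this cluster that the medium lowered. Its libraries held 15.5, 16.6, 15.2 and 15.4 CPM in TRAP1 KO TCM, 6.53, 3.65 and 4.85 in WT TCM and 37.9, 40.1 and 41.0 in WT naive, and 55.4, 59.9 and 53.9 in JMJD3 cKO TCM against 112, 143 and 124 in JMJD3 WT TCM. TRAP1 KO TCM lay above WT TCM and still below WT naive in every library. The log2 fold change was -2.97, SE 0.09, adjusted p = 3.6e-40 with the medium, 1.64, SE 0.10, adjusted p = 3.8e-23 without TRAP1 and -1.15, SE 0.11, adjusted p = 5.1e-04 in the JMJD3 knockout. Ccl11, which lies between Ccl7 and Ccl12 and attracts eosinophils, had at most 6 counts in a library and was not tested.

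**Figure D2:**
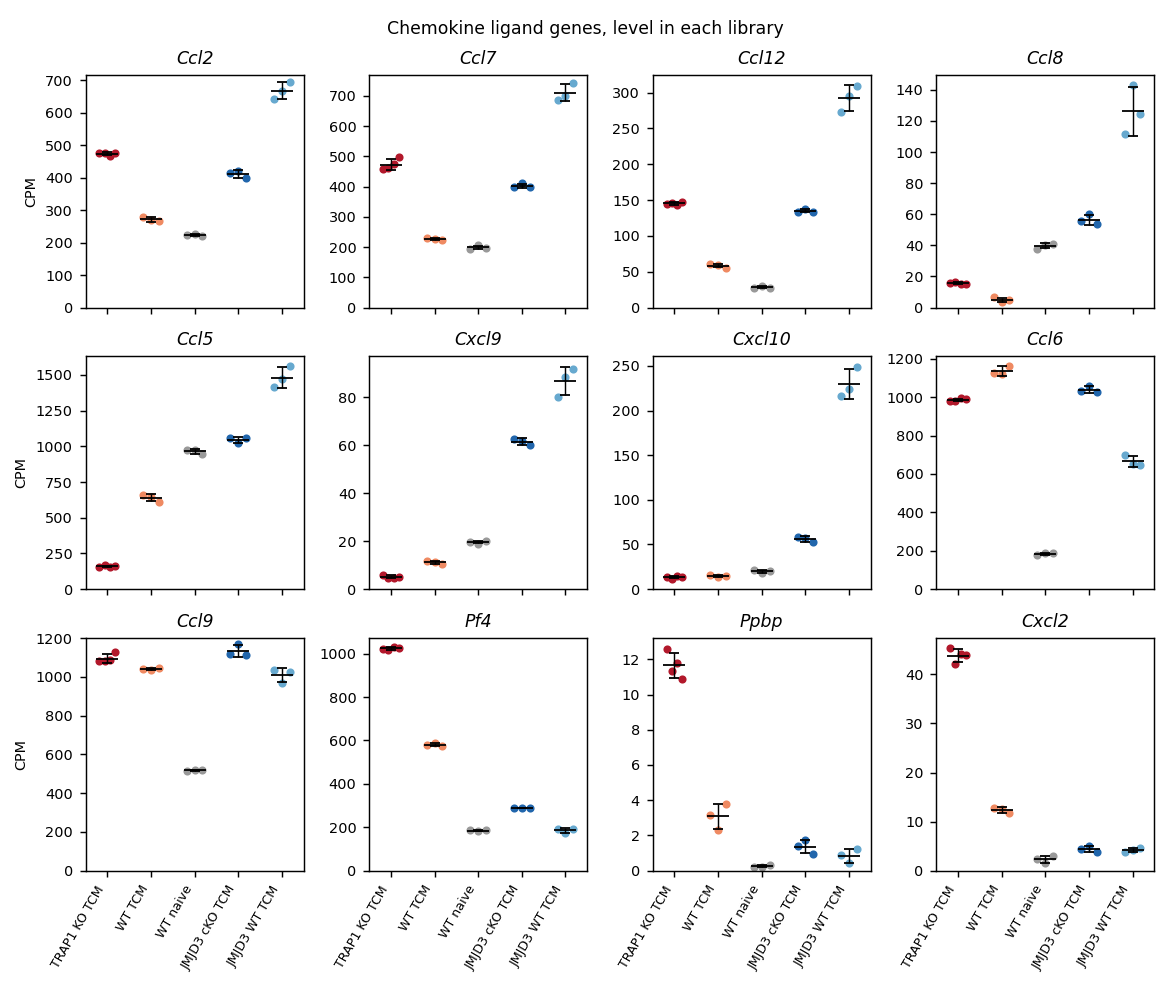
Level in CPM (y axis, from 0, a scale of its own for each gene) of 12 ligand genes in the 5 groups (x axis); points are libraries, the horizontal bar is the mean and the error bar the SD (n = 4 in TRAP1 KO TCM and 3 elsewhere). The 4 TRAP1 KO TCM libraries lie above the WT TCM libraries for Ccl2, Ccl7, Ccl12 and Cxcl2 and below them for Ccl5 and Cxcl9.

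The inflammatory CC chemokine genes Ccl3, Ccl4 and Ccl5 did not move together. Ccl5, which attracts T cells and monocytes, had 157, 165, 158 and 159.7 CPM in TRAP1 KO TCM, 660.2, 648 and 612 in WT TCM and 978, 973 and 946 in WT naive, and 1056, 1022 and 1059 in JMJD3 cKO TCM against 1413, 1469 and 1562 in JMJD3 WT TCM. The libraries of the 5 groups did not overlap, with TRAP1 KO TCM lowest and JMJD3 WT TCM highest. It fell in all 3 contrasts, with a log2 fold change of -0.59, SE 0.02, adjusted p = 1.1e-42 with the medium, -1.996, SE 0.02, adjusted p = 3.6e-79 without TRAP1 and -0.49, SE 0.03, adjusted p = 4.7e-16 in the JMJD3 knockout. Ccl3, or MIP-1 alpha, averaged 47.1 ± 0.885 CPM in TRAP1 KO TCM, 55.8 ± 0.558 in WT TCM and 54.3 ± 1.17 in WT naive (SD, n = 4, 3 and 3). It fell without TRAP1 (-0.24, adjusted p = 8.6e-07 on the log2 scale), rose in the JMJD3 knockout (0.22, adjusted p = 3.0e-04) and did not pass the test with the medium (0.04, adjusted p = 0.5, 95% interval -0.05 to 0.13). Ccl4, or MIP-1 beta, averaged 67.3 ± 1.53 CPM in JMJD3 cKO TCM and 81.4 ± 5.64 in JMJD3 WT TCM (SD, n = 3 each) and fell there (-0.26, adjusted p = 9.9e-06). Its log2 fold change was 0.01 without TRAP1 (95% interval -0.09 to 0.10) and 0.04 with the medium (-0.06 to 0.14), neither past the threshold.

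Ccl6 and Ccl9, mouse CC chemokines that act through CCR1 and are constitutively made by myeloid cells, lie beside Ccl3 and Ccl4 on chromosome 11 (chr11:83587882-83593087 and chr11:83572919-83578636). Ccl6 had 982, 979, 993 and 989 CPM in TRAP1 KO TCM, 1128, 1118 and 1165 in WT TCM and 178, 187 and 187 in WT naive, and 1030.0, 1059 and 1029 in JMJD3 cKO TCM against 696, 654 and 645 in JMJD3 WT TCM. The wild-type libraries with the medium were far above those without it. It rose with the medium (log2 fold change 2.63, SE 0.02, adjusted p = 7.4e-95), fell slightly without TRAP1 (-0.20, SE 0.02, adjusted p = 3.1e-19) and rose in the JMJD3 knockout (0.65, SE 0.03, adjusted p = 8.9e-24). Ccl9 had 1081, 1083, 1086 and 1127 CPM in TRAP1 KO TCM, 1043, 1035 and 1047 in WT TCM and 516, 521 and 520.0 in WT naive, and 1118, 1170.4 and 1113 in JMJD3 cKO TCM against 1037, 967 and 1028 in JMJD3 WT TCM. It rose with the medium (log2 fold change 1.01, SE 0.02, adjusted p = 7.1e-69) and rose by little in the knockouts, by 0.08, SE 0.02, adjusted p = 1.9e-05 without TRAP1 and 0.18, SE 0.03, adjusted p = 4.5e-07 in the JMJD3 knockout on the log2 scale.

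Cxcl9 and Cxcl10, the CXCR3 ligands that interferons induce in macrophages, separated in the knockouts. Their neighbouring promoters on chromosome 5 are shown because Cxcl10 had the deepest fall of the tested members in the JMJD3 contrast. The RefSeq windows (GRCm38.p6) run over the 250 bases before the start site, and capitals mark matches on either strand to the core of the interferon-stimulated response element (GAAA, any 2 bases, GAAA) or to a loose form of the NF-kB site (GGGA, any 4 bases, CC).
Cxcl10, chr5:92348890-92349139, minus strand: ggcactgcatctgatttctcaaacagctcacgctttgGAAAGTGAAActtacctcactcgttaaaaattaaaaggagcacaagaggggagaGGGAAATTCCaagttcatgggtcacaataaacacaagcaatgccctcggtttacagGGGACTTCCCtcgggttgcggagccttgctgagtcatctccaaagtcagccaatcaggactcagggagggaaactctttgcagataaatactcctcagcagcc
Cxcl9, chr5:92328080-92328329, minus strand: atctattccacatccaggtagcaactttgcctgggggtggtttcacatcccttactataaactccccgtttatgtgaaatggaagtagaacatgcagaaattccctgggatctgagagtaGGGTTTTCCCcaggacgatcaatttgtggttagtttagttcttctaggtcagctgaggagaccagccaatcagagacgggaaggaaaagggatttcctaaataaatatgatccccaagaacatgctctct
The Cxcl10 window held 1 match to the interferon element, starting 213 bases before the start site, and 2 to the NF-kB site, at 159 and 103 bases. The Cxcl9 window held 1 NF-kB match, at 130 bases, and no match to the interferon element. Of all 32851 promoter windows of this length, 2.98% held the interferon element and 17.6% the NF-kB site. Among the 29 tested members with a window, 2 (Cxcl10 and Cxcl14) and 11 did. A match is a string of letters and was not tested as a binding site.

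Cxcl10, also called IP-10, had 58.2, 57.3 and 52.9 CPM in JMJD3 cKO TCM against 217, 224 and 249 in JMJD3 WT TCM, and 13.6, 11.8, 14.3 and 13.7 in TRAP1 KO TCM, 15.5, 13.8 and 14.4 in WT TCM and 21.2, 18.4 and 19.7 in WT naive. Both JMJD3 groups were above the other 3 groups in every library. The fall in the JMJD3 knockout was about 4-fold (log2 fold change -2.03, SE 0.05, adjusted p = 1.3e-24). It also fell with the medium (-0.44, SE 0.08, adjusted p = 6.1e-06), while the TRAP1 contrast did not pass the threshold (-0.13, 95% interval -0.29 to 0.04, adjusted p = 0.22). Cxcl9, or MIG, had 5.93, 4.73, 4.69 and 5.18 CPM in TRAP1 KO TCM, 11.8, 11.2 and 10.5 in WT TCM and 19.8, 19.0 and 19.9 in WT naive, and 62.6, 61.9 and 59.9 in JMJD3 cKO TCM against 80.3, 88.3 and 91.9 in JMJD3 WT TCM. None of the contrasted groups overlapped. Cxcl9 fell in all 3 contrasts, with a log2 fold change of -1.12, SE 0.10, adjusted p = 2.0e-16 without TRAP1, -0.80, SE 0.09, adjusted p = 1.1e-12 with the medium and -0.49, SE 0.05, adjusted p = 8.9e-12 in the JMJD3 knockout. Cxcl11, the third CXCR3 ligand, is annotated as a polymorphic pseudogene and is not counted as a member. It was at 5.33 ± 0.397 CPM in JMJD3 cKO TCM and 34.0 ± 1.15 in JMJD3 WT TCM (SD, n = 3 each) and fell in the JMJD3 knockout (log2 fold change -2.66, SE 0.09, adjusted p = 3.2e-26). Cxcl11 also fell with the medium (-1.26, SE 0.35, adjusted p = 0.002) and without TRAP1 (-1.28, SE 0.47, adjusted p = 0.018). Those calls rest on 20 counts in TRAP1 KO TCM, 34 in WT TCM and 101 in WT naive.

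Of the neutrophil attractants of the CXCR2 group, Cxcl1, Cxcl2 and Cxcl3 rose with the medium or without TRAP1 and were low in the JMJD3 set. Cxcl5 and Cxcl15, also on chromosome 5, had at most 3 and 1 counts in a library and were not tested. Windows of Cxcl1, Cxcl2 and Cxcl3 (all plus strand, marked as above) are shown because these neighbours on chromosome 5 rose together in TRAP1 KO TCM.
Cxcl2, chr5:90903649-90903898: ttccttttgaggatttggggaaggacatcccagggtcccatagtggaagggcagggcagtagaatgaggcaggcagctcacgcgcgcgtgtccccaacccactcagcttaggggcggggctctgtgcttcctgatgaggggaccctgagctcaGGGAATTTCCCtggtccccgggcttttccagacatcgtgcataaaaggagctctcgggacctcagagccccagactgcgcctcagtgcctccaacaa
Cxcl1, chr5:90890995-90891244: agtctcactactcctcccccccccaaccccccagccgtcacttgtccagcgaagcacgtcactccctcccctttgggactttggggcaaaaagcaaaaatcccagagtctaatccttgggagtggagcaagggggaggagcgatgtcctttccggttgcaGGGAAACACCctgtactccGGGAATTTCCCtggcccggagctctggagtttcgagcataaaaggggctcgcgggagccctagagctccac
Cxcl3, chr5:90785851-90786100: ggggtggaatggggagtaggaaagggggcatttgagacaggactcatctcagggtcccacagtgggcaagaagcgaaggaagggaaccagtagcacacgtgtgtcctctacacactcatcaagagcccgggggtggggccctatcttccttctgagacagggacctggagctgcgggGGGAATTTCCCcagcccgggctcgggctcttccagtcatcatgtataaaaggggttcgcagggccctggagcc
Each held the NF-kB site, with overlapping matches on both strands that began 97 and 96 bases before the start site in Cxcl2, 71 and 70 in Cxcl1 and 73 and 72 in Cxcl3. Cxcl1 held another at 90 bases. None of the 3 windows held the interferon element. The NF-kB site was also in the windows of Ccr1 and Ccrl2, which rose without TRAP1, and of Cxcl9 and Ccr3, which fell. It was in those of Cxcl10, Ccr9 and Ccl27a too, which were not called there, and of Ccl22, which was not tested there. Windows of Ccl8, Ccl9, Ccl12, Ccr2, Cxcl12, Pf4 and Ppbp, which also rose without TRAP1, held no match to it.

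Cxcl2, also called MIP-2, had 45.3, 42.0, 44.1 and 43.9 CPM in TRAP1 KO TCM, 12.9, 12.5 and 11.7 in WT TCM and 2.34, 1.61 and 3.04 in WT naive. The 3 groups were apart, with the knockout highest. It rose with the medium (log2 fold change 2.42, SE 0.12, adjusted p = 1.1e-31) and without TRAP1 (1.83, SE 0.07, adjusted p = 3.3e-38). In the JMJD3 set it had 4.41, 5.10 and 3.77 CPM in JMJD3 cKO TCM and 3.90, 4.28 and 4.66 in JMJD3 WT TCM, overlapping groups whose difference did not pass the test (0.05, 95% interval -0.28 to 0.39, adjusted p = 0.84). Cxcl1, or KC, was much rarer, at 1.60, 1.82, 1.90 and 1.94 CPM in TRAP1 KO TCM, 0.557, 0.553 and 0.693 in WT TCM and 0.276, 0.521 and 0.327 in WT naive. All knockout libraries exceeded the others, and it rose without TRAP1 (1.60, SE 0.32, adjusted p = 1.6e-05) while the contrast of the medium missed the threshold (0.65, 95% interval -0.22 to 1.52, adjusted p = 0.23). Cxcl3 had 2.03, 1.82, 2.79 and 2.43 CPM in TRAP1 KO TCM, 0.456, 0.497 and 0.378 in WT TCM and 0, 0.0869 and 0.0935 in WT naive. It rose without TRAP1 (2.33, SE 0.34, adjusted p = 5.6e-09) and with the medium (2.76, SE 0.71, adjusted p = 4.1e-04), on 177 counts in TRAP1 KO TCM, 24 in WT TCM and 4 in WT naive. Cxcl1 and Cxcl3 did not pass the filter in the JMJD3 set, where no library exceeded 0.525 CPM of either.

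Pf4 and Ppbp, best known as platelet alpha-granule chemokines and encoded in the same stretch of chromosome 5, both rose with the medium and without TRAP1. Pf4 had 1024, 1018, 1031 and 1028 CPM in TRAP1 KO TCM, 581, 586 and 574 in WT TCM and 186, 181 and 185 in WT naive, and 287, 288 and 288 in JMJD3 cKO TCM against 192, 171 and 193 in JMJD3 WT TCM. No contrasted groups overlapped. It rose with the medium (log2 fold change 1.66, SE 0.02, adjusted p = 4.4e-82), without TRAP1 (0.83, SE 0.02, adjusted p = 2.6e-62) and in the JMJD3 knockout (0.64, SE 0.03, adjusted p = 8.4e-20). Ppbp, the precursor of the CXCR2 ligand NAP-2, had 12.6, 11.3, 11.8 and 10.9 CPM in TRAP1 KO TCM, 3.14, 2.32 and 3.78 in WT TCM and 0.230, 0.217 and 0.327 in WT naive, and 1.42, 1.72 and 0.953 in JMJD3 cKO TCM against 0.867, 0.415 and 1.21 in JMJD3 WT TCM. Ppbp rose with the medium (3.54, SE 0.29, adjusted p = 1.3e-19) and without TRAP1 (1.93, SE 0.13, adjusted p = 4.9e-23), and the overlapping JMJD3 groups gave 0.69 (95% interval -0.02 to 1.41, adjusted p = 0.13). The 6 megakaryocyte and platelet markers summed to 5.77 to 7.71 CPM per library in TRAP1 KO TCM, 4.10 to 4.61 in WT TCM, 4.23 to 5.47 in WT naive, 4.77 to 5.78 in JMJD3 cKO TCM and 5.45 to 5.74 in JMJD3 WT TCM. Gp1bb was at 0 counts in every library. Of the 2 of these markers that were tested, both rose without TRAP1, and neither was called with the medium. Their part in the Pf4 and Ppbp results was not tested.

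Among the remaining ligands, Cxcl16, a membrane-bound ligand of CXCR6 that also scavenges oxidised lipid, averaged 226 ± 3.92 CPM in TRAP1 KO TCM, 226 ± 3.21 in WT TCM, 293 ± 2.43 in WT naive, 238 ± 6.40 in JMJD3 cKO TCM and 299 ± 7.65 in JMJD3 WT TCM (SD, n = 4 in TRAP1 KO TCM and 3 elsewhere). It fell with the medium (-0.38, adjusted p = 2.8e-26 on the log2 scale) and in the JMJD3 knockout (-0.32, adjusted p = 7.8e-12), and its TRAP1 contrast was 0.01 (95% interval -0.04 to 0.05, adjusted p = 0.85). Cxcl14 fell with the medium (-0.42, adjusted p = 4.3e-08) and without TRAP1 (-0.25, adjusted p = 8.2e-04). It rose in the JMJD3 knockout (0.24, adjusted p = 0.022), a call lost with DESeq2, without JMJD3 WT TCM replicate 1 or 3 and without JMJD3 cKO TCM replicate 2 or 3. Ccl25, the thymus-expressed ligand of CCR9, and Ccl27a passed no threshold in any of the 3 contrasts, at 5.04 to 6.95 and 0.920 to 1.28 CPM as group means.

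A further 3 ligands were changed at the edge of detection. Cx3cl1, or fractalkine, had 0.695, 0.621, 0.948 and 1.02 CPM in TRAP1 KO TCM, 1.11, 1.22 and 0.945 in WT TCM and 0.368, 0.521 and 0.748 in WT naive. The WT TCM libraries were above those of WT naive (a log2 fold change of 1.002, SE 0.37, adjusted p = 0.022), a call lost when WT naive replicate 1 or 2 or WT TCM replicate 1 or 2 was left out. Cxcl12, or SDF-1, the stromal ligand of CXCR4, had 0.588, 0.143, 0.0998 and 0.485 CPM in TRAP1 KO TCM, 0, 0.0553 and 0.0630 in WT TCM and 0.413, 0.565 and 0.655 in WT naive, and 0 counts in all 6 libraries of the JMJD3 set. It rose without TRAP1 (adjusted p = 0.005) and fell with the medium (adjusted p = 1.1e-04), on 25 counts in TRAP1 KO TCM, 2 in WT TCM and 36 in WT naive. The ratio of TRAP1 KO TCM to WT TCM was 8.58 (2.14 to 74.8) and that of WT TCM to WT naive 0.0684 (0.00798 to 0.266), with exact 95% intervals that cover counting error only. The 8 stromal fibroblast markers summed to 5.98 to 8.58 CPM per library in TRAP1 KO TCM, 0.166 to 0.506 in WT TCM and 17.5 to 18.7 in WT naive, with Col3a1, Dcn and Pdgfra at 0 in WT TCM. Of the 5 tested, 5 fell with the medium and 4 rose without TRAP1, and their part in the Cxcl12 result was not tested. Ccl24, or eotaxin-2, rose without TRAP1 (adjusted p = 0.0083) and fell with the medium (adjusted p = 7.1e-07), on 22 counts in TRAP1 KO TCM, 2 in WT TCM and 54 in WT naive. Its ratios were 7.55 (1.86 to 66.2) for TRAP1 KO TCM to WT TCM and 0.0456 (0.00539 to 0.173) for WT TCM to WT naive. With the medium and without TRAP1 the fibroblast markers moved with it too. In the JMJD3 set Ccl24 averaged 0.342 CPM in JMJD3 cKO TCM and 0.521 in JMJD3 WT TCM, beside 0.284 in TRAP1 KO TCM. The fibroblast markers summed to 1.27 to 2.34 CPM per library in JMJD3 cKO TCM and 0.743 to 1.66 in JMJD3 WT TCM. The part of these markers in the Ccl24 result was not tested.

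The receptor genes Ccr1, Ccr1l1, Ccr2 and Ccr3, all on chromosome 9, responded one by one. Ccr1 (chr9:123962124-123968692), a receptor for CCL3, CCL5, CCL6 and CCL9 on myeloid cells, had 172, 174, 170.3 and 164 CPM in TRAP1 KO TCM, 153, 153 and 147 in WT TCM and 16.1, 16.5 and 19.2 in WT naive, and 189.7, 192 and 186 in JMJD3 cKO TCM against 167, 170.1 and 178 in JMJD3 WT TCM. The 13 libraries with the medium lay at 147 CPM or above and the 3 without it at 19.2 or below. Beside that rise with the medium (log2 fold change 3.13, SE 0.04, adjusted p = 6.1e-75), the knockout effects were small, 0.18, SE 0.03, adjusted p = 3.6e-07 for TRAP1 and 0.15, SE 0.03, adjusted p = 3.0e-04 for JMJD3. Ccr1l1, a mouse receptor-like neighbour of Ccr1, had 0.374, 0.334, 0.449 and 0.539 CPM in TRAP1 KO TCM, 1.47, 1.77 and 1.07 in WT TCM and 0.919, 1.04 and 1.08 in WT naive, and 2.84, 2.60 and 2.32 in JMJD3 cKO TCM against 4.03, 3.52 and 4.59 in JMJD3 WT TCM. It fell without TRAP1 (-1.76, SE 0.35, adjusted p = 1.1e-05) and in the JMJD3 knockout (-0.64, SE 0.19, adjusted p = 0.007), and the JMJD3 call was lost with DESeq2 and without JMJD3 WT TCM replicate 3.

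Ccr2, the receptor of inflammatory monocytes, averaged 147 ± 3.01 CPM in TRAP1 KO TCM, 92.0 ± 2.94 in WT TCM, 90.1 ± 0.961 in WT naive, 169 ± 8.78 in JMJD3 cKO TCM and 170.3 ± 2.10 in JMJD3 WT TCM (SD, n = 4 in TRAP1 KO TCM and 3 elsewhere). It rose without TRAP1 (log2 fold change 0.68, SE 0.03, adjusted p = 7.1e-36), with no library of the groups overlapping. The contrast of the medium gave 0.03 (95% interval -0.03 to 0.10, adjusted p = 0.47) and that of JMJD3 had a 95% interval of -0.07 to 0.07 (adjusted p = 0.96). Ccr3, the eotaxin receptor of eosinophils, averaged 27.2 ± 0.849 CPM in TRAP1 KO TCM, 52.0 ± 1.48 in WT TCM, 33.8 ± 1.496 in WT naive, 52.0 ± 3.08 in JMJD3 cKO TCM and 71.3 ± 1.999 in JMJD3 WT TCM (SD, n as above). With the medium it rose (0.62, SE 0.05, adjusted p = 1.1e-18), and it fell without TRAP1 (-0.93, SE 0.05, adjusted p = 1.1e-29) and in the JMJD3 knockout (-0.45, SE 0.05, adjusted p = 3.3e-10).

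**Figure D3:**
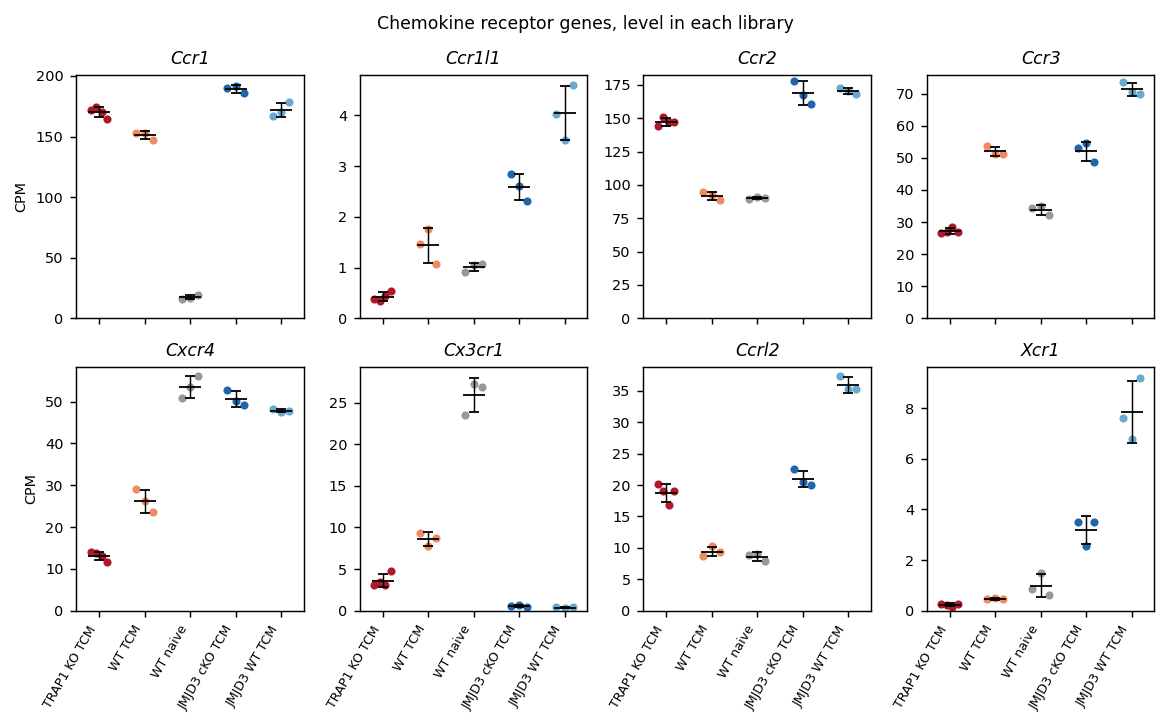
Level in CPM (y axis, from 0, a scale of its own for each gene) of 8 receptor genes in the 5 groups (x axis); points are libraries, the horizontal bar is the mean and the error bar the SD (n = 4 in TRAP1 KO TCM and 3 elsewhere). Ccr1 is low in the 3 WT naive libraries, and Cx3cr1 is highest there and lowest in the JMJD3 set.

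Cxcr4, the receptor of CXCL12 and a retention signal for marrow cells, had 14.0, 13.8, 13.0 and 11.7 CPM in TRAP1 KO TCM, 29.0, 26.1 and 23.5 in WT TCM and 50.8, 53.6 and 56.1 in WT naive, and 52.8, 50.1 and 49.1 in JMJD3 cKO TCM against 48.2, 47.6 and 47.7 in JMJD3 WT TCM. The TRAP1 set formed 3 separate steps, while the JMJD3 groups were close without overlapping. It fell with the medium (log2 fold change -1.02, SE 0.06, adjusted p = 1.1e-26) and without TRAP1 (-0.998, SE 0.07, adjusted p = 1.2e-22), and its JMJD3 contrast was 0.09 (95% interval -0.01 to 0.20, adjusted p = 0.17). Scaled by library totals, the JMJD3 contrast passed the threshold at 0.17 (adjusted p = 0.00618). Cx3cr1, the fractalkine receptor of resident macrophages and patrolling monocytes, had 3.05, 3.44, 3.14 and 4.74 CPM in TRAP1 KO TCM, 9.37, 7.74 and 8.76 in WT TCM and 23.6, 27.2 and 26.9 in WT naive. It fell with the medium (-1.58, SE 0.10, adjusted p = 2.5e-26) and without TRAP1 (-1.26, SE 0.12, adjusted p = 2.2e-15) and stayed at or under 0.625 CPM in every JMJD3 library, too low to pass the filter there. Xcr1, the receptor of cross-presenting dendritic cells, was at 3.52, 2.55 and 3.496 CPM in JMJD3 cKO TCM against 7.62, 6.77 and 9.19 in JMJD3 WT TCM, and at 1.48 CPM or less in every library of the other set. It fell in the JMJD3 knockout (-1.29, SE 0.16, adjusted p = 6.7e-09). Its fall with the medium (-1.08, SE 0.41, adjusted p = 0.026) was lost without WT naive replicate 2 (-0.67), without any of the 3 WT TCM libraries, with DESeq2 and with no filter. The 5 dendritic cell markers summed to 0.937 to 1.16 CPM per library in JMJD3 cKO TCM and 0.622 to 1.18 in JMJD3 WT TCM.

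Cxcr3 averaged 5.36 ± 0.308 CPM in TRAP1 KO TCM, 7.64 ± 0.728 in WT TCM, 5.57 ± 0.450 in WT naive, 7.68 ± 0.882 in JMJD3 cKO TCM and 4.99 ± 0.943 in JMJD3 WT TCM (SD, n as above). It rose with the medium (0.46, adjusted p = 0.0015 on the log2 scale), fell without TRAP1 (-0.51, adjusted p = 2.4e-04) and rose in the JMJD3 knockout (0.64, adjusted p = 3.8e-04). The 5 T cell markers summed to 17.95 to 20.2 CPM per library in TRAP1 KO TCM, 28.4 to 29.96 in WT TCM, 14.7 to 15.5 in WT naive, 33.3 to 35.4 in JMJD3 cKO TCM and 32.8 to 35.1 in JMJD3 WT TCM. Cd4 alone of them passed the filter, higher with the medium and lower without TRAP1. The defining markers Cd3e, Cd3d, Cd8a and Trac had 0 counts in all WT TCM libraries. In the other groups each of the 5 had counts, apart from Cd3d in TRAP1 KO TCM and Trac in JMJD3 WT TCM. The part of these markers in the Cxcr3 result was not tested. Ccr9, Ccr10 and Cxcr6 were tested in all 3 contrasts and passed the threshold in none, with group means from 0.436 (Cxcr6 in WT TCM) to 1.46 CPM (Ccr10 in WT naive). Ccr7, the lymph node homing receptor, was tested in the JMJD3 contrast alone of the 3 (-0.19, 95% interval -0.90 to 0.51, adjusted p = 0.72). Ccrl2, which binds chemerin and is the only atypical receptor of the list above the filter, had 20.1, 19.1, 16.8 and 19.0 CPM in TRAP1 KO TCM, 8.71, 10.2 and 9.26 in WT TCM and 8.91, 9.08 and 7.86 in WT naive, and 22.5, 20.5 and 20.1 in JMJD3 cKO TCM against 37.3, 35.2 and 35.2 in JMJD3 WT TCM. It rose without TRAP1 (1.002, SE 0.09, adjusted p = 3.0e-17) and fell in the JMJD3 knockout (-0.77, SE 0.07, adjusted p = 1.1e-12), and the overlapping wild-type groups gave 0.12 with the medium (95% interval -0.08 to 0.33, adjusted p = 0.36).

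The TRAP1 and JMJD3 effects were set against each other in a fit of all 16 libraries. A positive value means a larger log2 fold change in the TRAP1 contrast. Each knockout was present in its own set alone, and the sets differ in line and sex. A difference between the knockouts therefore cannot be told apart from a difference between the sets. Of 38 members tested, 15 were called higher and 11 lower, with a background of 37.9% of 14545 genes (18.4% higher and 19.5% lower). At least 2-fold, 10 were higher and 5 lower, beside 3.42% and 3.92% of all genes (7.34% together). With library totals 35.8% of all calls were higher, beside 48.6% with TMM. The difference was 1.49, SE 0.03, adjusted p = 9.4e-60 for Ccl2, 1.87, SE 0.04, adjusted p = 5.1e-50 for Ccl7, 2.42, SE 0.05, adjusted p = 2.5e-59 for Ccl12 and 2.79, SE 0.19, adjusted p = 5.8e-08 for Ccl8. Ccrl2, the chemerin-binding receptor, was the other member with a rise without TRAP1 and a fall in the JMJD3 knockout (1.76, SE 0.11, adjusted p = 1.8e-25). Ccl5 fell in both knockouts and fell further without TRAP1 (-1.51, SE 0.04, adjusted p = 2.0e-18), as did Cxcl9 (-0.64, SE 0.11, adjusted p = 3.7e-07), Ccr3 (-0.48, SE 0.07, adjusted p = 5.9e-09) and Ccr1l1 (-1.12, SE 0.39, adjusted p = 0.014), the last lost without WT TCM replicate 2. Cxcl10 fell in the JMJD3 knockout and was not called without TRAP1, with a difference of 1.89, SE 0.09, adjusted p = 4.6e-24. Ccl6, Ccl3 and Cxcr3, each lower without TRAP1 and higher in the JMJD3 knockout, gave -0.86, SE 0.03, adjusted p = 1.0e-40, -0.47, SE 0.06, adjusted p = 7.4e-10 and -1.15, SE 0.18, adjusted p = 1.4e-07. Pf4 rose in both and by slightly more without TRAP1 (0.18, SE 0.03, adjusted p = 5.9e-06). For Ccr1, which rose in both, the difference was 0.02 (95% interval -0.07 to 0.11, adjusted p = 0.74).

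**Figure D4:**
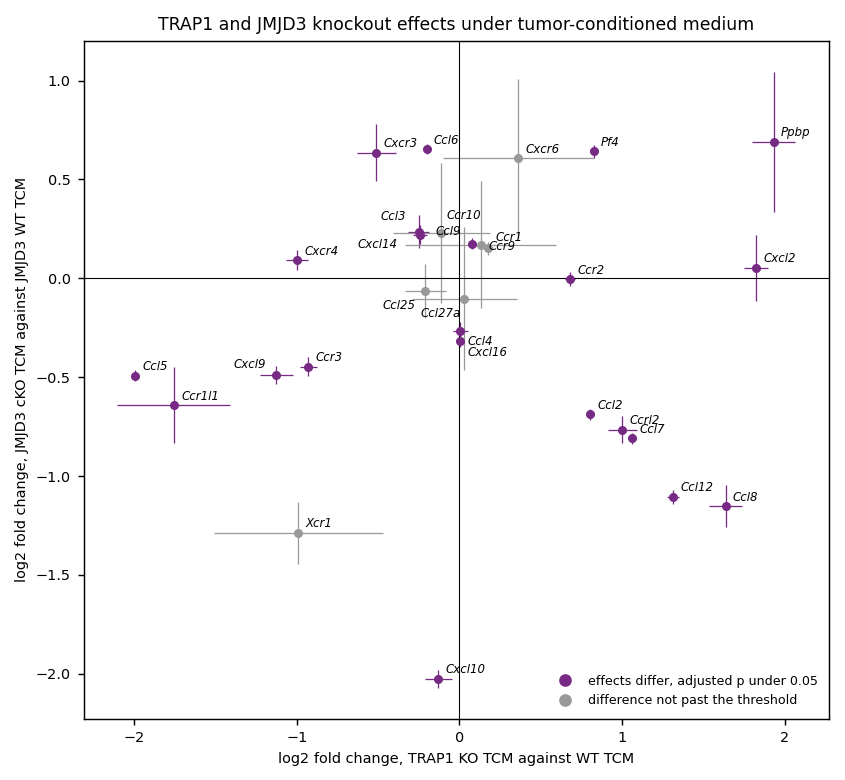
Log2 fold change of TRAP1 KO TCM against WT TCM (x axis) and of JMJD3 cKO TCM against JMJD3 WT TCM (y axis) for 29 members tested in both, with SE bars; purple points are members whose 2 effects differed at an adjusted p under 0.05. Ccl2, Ccl7, Ccl12, Ccl8 and Ccrl2 lie at the lower right, higher without TRAP1 and lower in the JMJD3 knockout.

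The wild-type sets themselves differed widely under the same medium. JMJD3 WT TCM against WT TCM called 32 of 38 members tested, where the background was 61.3% of genes (30% higher and 31.3% lower). At least 2-fold, 15 were higher and 7 lower in JMJD3 WT TCM, beside 8.78% and 5.71% of all genes (14.5% together). Scaling by library totals moved the median of all genes by -0.17 on the log2 scale and left 31.7% of calls higher, beside 48.9% with TMM. Cxcl10 was higher in JMJD3 WT TCM by 3.98, SE 0.06, adjusted p = 7.6e-49, Ccl8 by 4.64, SE 0.14, adjusted p = 1.3e-12, Xcr1 by 4.06, SE 0.27, adjusted p = 1.4e-25, Cxcl9 by 2.95, SE 0.07, adjusted p = 2.3e-60 and Ccl12 by 2.32, SE 0.04, adjusted p = 1.1e-68 on the log2 scale. Cx3cr1 (-4.53, SE 0.23, adjusted p = 1.4e-32), Pf4 (-1.64, SE 0.03, adjusted p = 3.1e-68) and Cxcl2 (-1.53, SE 0.12, adjusted p = 2.1e-20) were lower. The sets differ in line and sex, and any difference in time or handling cannot be told apart from these. Levels across the sets are therefore given side by side, and each knockout is read within its own set.

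Genes that act with chemokine receptors were counted from 4 lists, beside which 42.2% of all genes were called with the medium, 42.2% without TRAP1 and 35.1% in the JMJD3 knockout. Of 25 tested genes of receptor signalling, such as G protein subunits and the kinases and exchange factors behind them, 15 rose and 7 fell with the medium, 13 rose and 5 fell without TRAP1, and 3 rose and 13 fell in the JMJD3 knockout. The median log2 fold changes were 0.12, 0.07 and -0.08 in this order, beside -0.01, 0.01 and 0.01 over all genes. Scaling by library totals moved the median of all genes in the JMJD3 contrast by 0.08, about the size of the list's median there. The split of this list was not counted under that scaling. The shares over all genes were not matched to the level of the listed genes, many of them abundant. The Src family kinase gene Fgr changed at least 2-fold, at 34.9 ± 1.53 CPM in TRAP1 KO TCM and 10.6 ± 0.781 in WT TCM (SD, n = 4 and 3; log2 fold change 1.73, SE 0.08, adjusted p = 2.4e-36), and it also rose with the medium (1.04, SE 0.10, adjusted p = 4.6e-15). Of the 15 genes that desensitise receptors, 6 rose and 5 fell with the medium, 5 and 5 without TRAP1, and 5 and 1 of 14 tested in the JMJD3 knockout, with median log2 fold changes of 0.07, 0.05 and 0.06. Rgs1, which switches off G proteins, fell with the medium to 54.1 ± 1.45 CPM in WT TCM, against 114 ± 4.64 in WT naive (SD, n = 3 each), which was -1.08, SE 0.04, adjusted p = 6.9e-43 on the log2 scale. Rgs2 of the same family also fell (-1.02, SE 0.03, adjusted p = 5.5e-51). Of 13 tested genes of chemokine cleavage and display, 8 rose and 4 fell with the medium, 7 and 6 without TRAP1, and 4 and 5 in the JMJD3 knockout, with medians of 0.28, 0.16 and -0.01. Mmp9, a gelatinase that trims chemokines, was at 158 ± 7.64 CPM in TRAP1 KO TCM and 62.3 ± 3.11 in WT TCM (SD, n = 4 and 3), with 1.35, SE 0.04, adjusted p = 1.2e-31 without TRAP1 and 1.39, SE 0.05, adjusted p = 4.5e-27 with the medium. Mmp9 rose in the JMJD3 knockout as well (0.78, SE 0.08, adjusted p = 1.4e-10). Mmp14, a membrane-bound protease, rose with the medium (1.24, SE 0.04, adjusted p = 1.3e-47) and without TRAP1 (0.90, SE 0.03, adjusted p = 3.8e-44). It fell in the JMJD3 knockout (-0.98, SE 0.05, adjusted p = 4.8e-19). Mmp12, the macrophage elastase, rose in the JMJD3 knockout (1.15, SE 0.03, adjusted p = 3.4e-29) and fell with the medium (-0.63) and without TRAP1 (-0.50). Mmp2 was rarer, with group means from 0.545 CPM in JMJD3 WT TCM to 2.82 in WT TCM. It rose with the medium (1.01, SE 0.25, adjusted p = 3.9e-04) and in the JMJD3 knockout (1.36, SE 0.37, adjusted p = 0.0028). It fell without TRAP1 (-1.16, SE 0.24, adjusted p = 2.4e-05). Of 13 other chemoattractant receptor genes, 7 rose and 3 fell with the medium, 7 and 5 without TRAP1, and 4 and 6 in the JMJD3 knockout, with medians of 0.34, 0.56 and 0.07. The formyl peptide receptor genes Fpr1 and Fpr2 rose with the medium (2.000, SE 0.10, adjusted p = 6.9e-33 and 1.14, SE 0.08, adjusted p = 3.7e-24) and without TRAP1 (1.501, SE 0.07, adjusted p = 2.9e-36 and 1.05, SE 0.06, adjusted p = 1.5e-28). Both fell in the JMJD3 knockout (-0.65, SE 0.20, adjusted p = 0.0076 and -0.91, SE 0.08, adjusted p = 2.5e-12). C5ar2, a decoy-like complement receptor, fell without TRAP1 to 3.25 ± 0.529 CPM, against 22.5 ± 1.68 in WT TCM (SD, n = 4 and 3; log2 fold change -2.79, SE 0.10, adjusted p = 1.6e-43).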

How the data were processed

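RNA from cultured mouse macrophages was sequenced after removal of ribosomal RNA, per the labels' protocols, with a kit that marks strand. The deposited files hold raw counts per Ensembl gene, 1 library per file; which of the tools named in the submitters' processing notes (HISAT, StringTie, Bowtie2, RSEM; mouse build mm10) made the counts, and with which annotation and strand setting, is not stated in them. Symbols, biotypes and exon lengths came from GENCODE M21, and promoter windows from RefSeq (GRCm38.p6), which had one for 49 of the 63 members on chromosomes. The tests used edgeR 4.0.16 under R 4.3.3 (quasi-likelihood test, robust, TMM scaling, filterByExpr with a minimum count of 10, Benjamini-Hochberg adjustment over all tested genes, call at adjusted p under 0.05). The 3 groups of the TRAP1 set shared a fit, the JMJD3 set had its own, and all 16 libraries were fitted for comparisons across sets. The test was checked on simulated counts. CPM values use TMM factors over all libraries, so ratios of printed CPM differ slightly from fitted fold changes. RPKM is CPM per kilobase of exon. Values by library are given for the 20 members called with at least 2-fold change in 1 of the 3 main contrasts, groups that do not overlap and at least 1 CPM in a group, in the libraries their calls rest on; for Cxcl1, Cxcl3, Cx3cl1, Cx3cr1 and Xcr1 the other set is given as a bound or left out. Other members are given as means or counts. Some members outside this rule, Ccl2 and Cxcl12 among them, also have values by library. Alternatives were RLE scaling, library totals, no filter, a minimum count of 50, DESeq2 1.42.0, a replicate block, another set of samples in the fit and leaving out each library. The values of 1 member are not reported here, though totals and counts over the members include it. The members, gene lists and motifs were chosen with earlier results of these data known.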

Additional observations from a re-analysis of the deposited data

Results flagged for a closer look

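Of the 20 members with values by library, tested for an outlying library in TRAP1 KO TCM, the group with 4 libraries, Ccl9 had one that stood apart. TRAP1 KO TCM replicate 4 had 1127 CPM of Ccl9, and the other libraries of that group had 1081 to 1086. Its gap to the nearest library was 0.883 of the group's range, above the critical value of 0.829. Chance flags about 5% of groups, and 20 were tested.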

How the results depend on the processing

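No direction of a called member among the 20 turned under any alternative that was run, and no TRAP1 call of theirs was lost in a fit that tested the member. With a minimum of 50 counts, which left out Cxcl1, Cxcl3 and Ccr1l1 among others, 12 members were called higher and 9 lower without TRAP1. Summed over the members with library totals in place of TMM, the levels moved to 6087 CPM in TRAP1 KO TCM, 5337 in WT TCM, 3619 in WT naive, 6325 in JMJD3 cKO TCM and 6779 in JMJD3 WT TCM. Leaving out 1 library at a time gave 13 to 14 members higher and 10 to 11 lower with the medium, 15 to 16 and 10 without TRAP1, and 6 to 7 and 12 to 13 in the JMJD3 knockout. It gave 14 to 15 and 10 to 11 for the difference of the knockouts and 21 to 22 and 10 to 12 between the wild-type sets. In the JMJD3 contrast, all genes called ran from 3360 with DESeq2 to 5503 with library totals, beside 4728. Same-numbered libraries did not deviate together (correlations between -0.0278 and 0.0202). No pairing by number was seen, though a weak pairing could be missed with so few libraries. With a replicate block, 14 members rose and 11 fell with the medium, 16 and 10 without TRAP1 and 7 and 13 in the JMJD3 knockout. Among single members whose call changed beyond those named above were Ccl9, Ccl25, Ccr1, Cxcl1 and Cxcl3 between the wild-type sets, Ppbp (0.88 without JMJD3 WT TCM replicate 3) and Ccl22 for the difference. The cause was not tested. Depth limits the 23 members under 1 CPM in every group, which had at most 24 counts in a library.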
